A study of Rattus norvegicus with 9 samples.

Results

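The 6 genes for cell adhesion receptors were taken from an array of 84 target genes measured by quantitative PCR in the rat patellar enthesis, the insertion of the patellar tendon into the tibia. They were every row whose symbol begins with Itg, which gave 5 integrin genes (*Itga2*, *Itga3*, *Itgam*, *Itgav* and *Itgb1*), and *Cdh11*, the gene of cadherin-11. The rule reads symbols and no measured value. The readout was the threshold cycle (Ct), the PCR cycle at which the fluorescence of a well crosses a set line, so an earlier Ct means more template and 1 cycle stands for about a 2-fold difference.

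The rats were adult male Sprague Dawley animals. In 3 treatments the patellar tendon was cut from the tibia and its bony insertion sawn out. The hole was filled with a biphasic silk fibroin scaffold whose bone-like and tendon-like ends met in a mixed transition (S-MT) or an abrupt transition (S-AT), or was left empty with the tendon sutured back to bone (ED). A further control (TC) had a transversal cut of the tendon with the bone left intact; its label names a tendon-to-tendon suture, whereas the methods of the study describe no treatment. Each was examined at 12 weeks and 4 weeks after surgery. Native tissue was the healthy enthesis of the other leg and served as 1 group for both times, although its label gives 4 weeks. The tissue was taken after the bone-tendon unit had been pulled to failure in a mechanical test. The study took 8 rats per group and time, but 1 value per well stands for each group in the tables, and whether it comes from 1 rat, from averaged rats or from pooled RNA is not given in the sources used here. No error, test or p-value can therefore be given, and a fold is called here when it is at least 2-fold. In bulk tissue, fewer cells of a type and less RNA per cell cannot be told apart.

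Integrins are receptors made of 1 alpha and 1 beta chain that couple the extracellular matrix to the cytoskeleton. The beta1 chain, encoded by *Itgb1*, joins alpha2 to form a collagen receptor, alpha3 to form a laminin receptor, and alphaV to form a receptor for ligands such as fibronectin; alphaV also joins other beta chains. The alphaM chain of *Itgam* (CD11b) instead joins beta2 on macrophages, neutrophils and other myeloid cells, and cadherin-11 joins mesenchymal cells such as fibroblasts and osteoblasts to each other.

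Promoter sequences are shown for *Itgb1* and *Itgav*, whose Ct moved together over the groups, and for *Itgam*, whose chain has another partner. Each runs from 250 bases before to 50 bases after the RefSeq start in the GRCr8 assembly, and capitals mark the GC box GGGCGG on either strand. Of the 6 genes, 5 were found in the RefSeq promoter table. The windows are chr19:73602027-73602326 (plus strand) for *Itgb1*, chr3:89245132-89245431 (plus strand) for *Itgav* and chr1:192089342-192089641 (plus strand) for *Itgam*.
Itgb1: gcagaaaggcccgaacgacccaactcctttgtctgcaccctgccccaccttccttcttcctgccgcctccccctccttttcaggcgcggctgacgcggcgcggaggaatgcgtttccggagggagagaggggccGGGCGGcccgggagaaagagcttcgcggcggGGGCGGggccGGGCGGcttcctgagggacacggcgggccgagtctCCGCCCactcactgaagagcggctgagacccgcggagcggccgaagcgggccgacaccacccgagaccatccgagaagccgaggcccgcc
Itgav: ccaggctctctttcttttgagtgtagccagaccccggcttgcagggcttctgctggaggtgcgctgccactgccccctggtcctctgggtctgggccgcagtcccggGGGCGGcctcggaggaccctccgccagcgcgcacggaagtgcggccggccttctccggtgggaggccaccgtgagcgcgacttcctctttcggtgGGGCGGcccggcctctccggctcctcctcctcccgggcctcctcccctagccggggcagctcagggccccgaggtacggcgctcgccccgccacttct
Itgam: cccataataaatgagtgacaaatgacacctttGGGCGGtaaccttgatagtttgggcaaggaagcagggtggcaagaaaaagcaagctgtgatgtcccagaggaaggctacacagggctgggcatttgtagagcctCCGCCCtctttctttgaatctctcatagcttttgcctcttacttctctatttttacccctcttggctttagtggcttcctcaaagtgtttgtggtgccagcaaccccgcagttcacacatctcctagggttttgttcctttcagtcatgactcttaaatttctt
The window of *Itgb1* held 4 GC boxes and that of *Itgav* held 2, and their GC contents were 71.7% and 72.7%. The window of *Itgam* also held 2 GC boxes, at a GC content of 46.3%. The unprinted windows of *Itga2* and *Itga3* held 3 and 2 GC boxes at 58.7% and 67% GC. Of all 33469 promoters in the table, 33.1% held at least 1 GC box, and the median GC content was 51.7%. The letters TATAAA were in none of the 5 windows on either strand and in 14.2% of all promoters. These matches describe letters and were not tied to the Ct values.

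*Itgb1* was the only one of the 6 genes with a Ct within the detection limit of 35 cycles in all 9 groups. Its Ct was 27.14 at 12 weeks and 27.27 at 4 weeks in S-MT, 30.48 and 27.60 with S-AT, 30.24 and 30.40 in ED, 33.06 and 33.29 in TC, and 32.35 in Native. The earliest values were those of S-MT at both times and S-AT at 4 weeks, the ED values and S-AT at 12 weeks lay about 3 cycles later, and TC came last. Relative to *Ldha* and *Rplp1*, the reference genes of the study, whose Ct were averaged, the level of *Itgb1* was 0.593 at 12 weeks and 0.725 at 4 weeks in S-MT. At the same times it was 0.0371 and 0.610 in S-AT, 0.0615 and 0.214 in ED, and 0.101 and 0.0871 in TC, and it was 0.199 in Native. Native thus lay next to ED at 4 weeks, below the 3 early groups and above the rest.

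Set against Native, *Itgb1* was higher in 3 operated groups and lower in 3. It was 2.97-fold higher in S-MT at 12 weeks and 3.62-fold higher in S-MT at 4 weeks. In S-AT it was 5.37-fold lower at 12 weeks and 3.06-fold higher at 4 weeks. In ED it was 3.24-fold lower at 12 weeks, and at 4 weeks the difference was 1.07-fold. In TC it was 2.29-fold lower at 4 weeks, and at 12 weeks the log2 fold was -0.99, just inside the 2-fold limit. The beta1 chain is made by nearly all adherent cells, and its Ct was also the earliest of the 6 in 8 of the 9 groups.

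The 2-fold calls of the other genes over Native were limited by the native tissue, in which *Itgav* crossed at 35.42 and *Cdh11*, *Itga2*, *Itga3* and *Itgam* were undetermined. A fold against a Native value beyond 35 cycles is a lower bound, taken at 35. In S-MT at 12 weeks, 2 of the 5 genes with a fold were called higher (*Itgb1* and *Itgav*) and 0 lower, and of all target genes with a fold 30.3% were higher and 0% lower. In S-MT at 4 weeks the same 2 of 4 were higher, against 29.4% higher and 0% lower. In S-AT 1 of 3 genes was called lower at 12 weeks and 0 higher, and the background was 4.44% higher and 35.6% lower. In S-AT at 4 weeks 2 of 4 were higher (*Itgb1* and *Itgav*), beside 25% higher and 3.57% lower. With so few genes these shares say little beyond the named genes.

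In the operated controls the calls over Native were sparser. In ED at 12 weeks 1 of 6 genes was higher (*Itga3*) and 1 lower (*Itgb1*), with 41% higher and 4.82% lower over all target genes. These calls varied with the setting: 3 were higher and 0 lower with 5 housekeeping genes, where *Itgb1* had a log2 fold of -0.66, and 0 were higher and 2 lower without a detection limit. In ED at 4 weeks 0 of 3 were called in either direction, with 33.3% higher and 4.76% lower. In TC 0 of 2 genes were called at 12 weeks (background 29.4% higher and 5.88% lower) and *Itgb1*, the 1 gene with a fold, was lower at 4 weeks (22.2% higher and 22.2% lower). The scaffold groups at 4 weeks and S-MT at 12 weeks thus held all of the *Itgb1* and *Itgav* values called higher than Native.

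**Figure D1:**
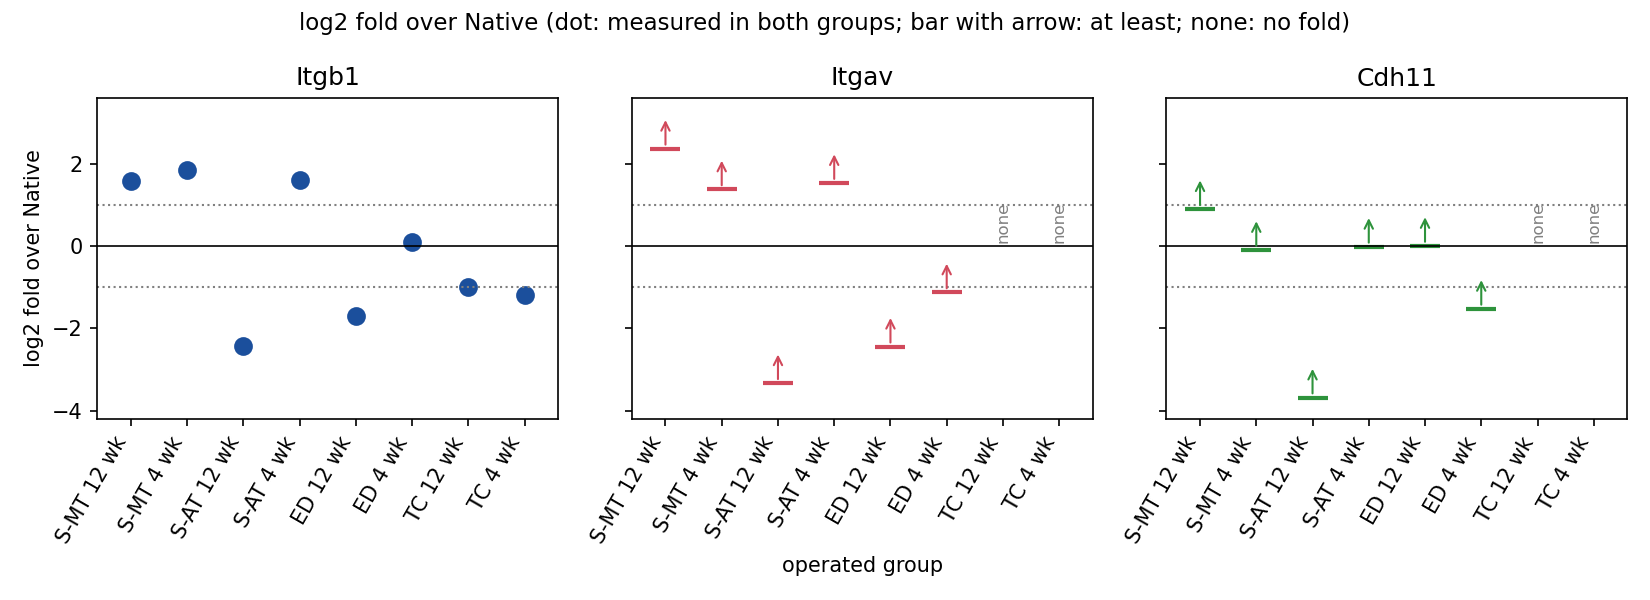
The log2 fold over Native (y axis) of Itgb1, Itgav and Cdh11 is shown for each operated group (x axis). Dots are folds measured in both groups, bars with arrows are lower bounds because Native was over 35 cycles, and dotted lines mark 2-fold. Itgb1 lies between 1.57 and 1.86 in the 3 highest groups and at -2.43 in S-AT at 12 weeks.

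The pattern depended in part on the reference. Against the median Ct of 15 other target genes detected in all 9 groups, most of them matrix genes and proteases, the log2 fold of *Itgb1* over Native was -0.09 in S-MT at 12 weeks and 0.12 at 4 weeks, and in S-AT it was -0.09 at 12 weeks and 0.25 at 4 weeks. *Itgb1* therefore moved with those genes in the scaffold groups and not apart from them. In ED and TC it lay below them, with log2 folds from -2.51 to -1.66. *Ldha* and *Rplp1* themselves differed by 2.26 to 3.25 cycles in 7 groups, but by 5.69 cycles in ED at 4 weeks and 5.38 in TC at 4 weeks. In ED at 4 weeks the log2 fold of *Itgb1* was 1.43 with *Ldha* alone and -1.23 with *Rplp1* alone, so that its direction there is not settled. In TC at 4 weeks *Itgb1* was no longer called lower than Native with *Ldha* alone.

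**Figure D2:**
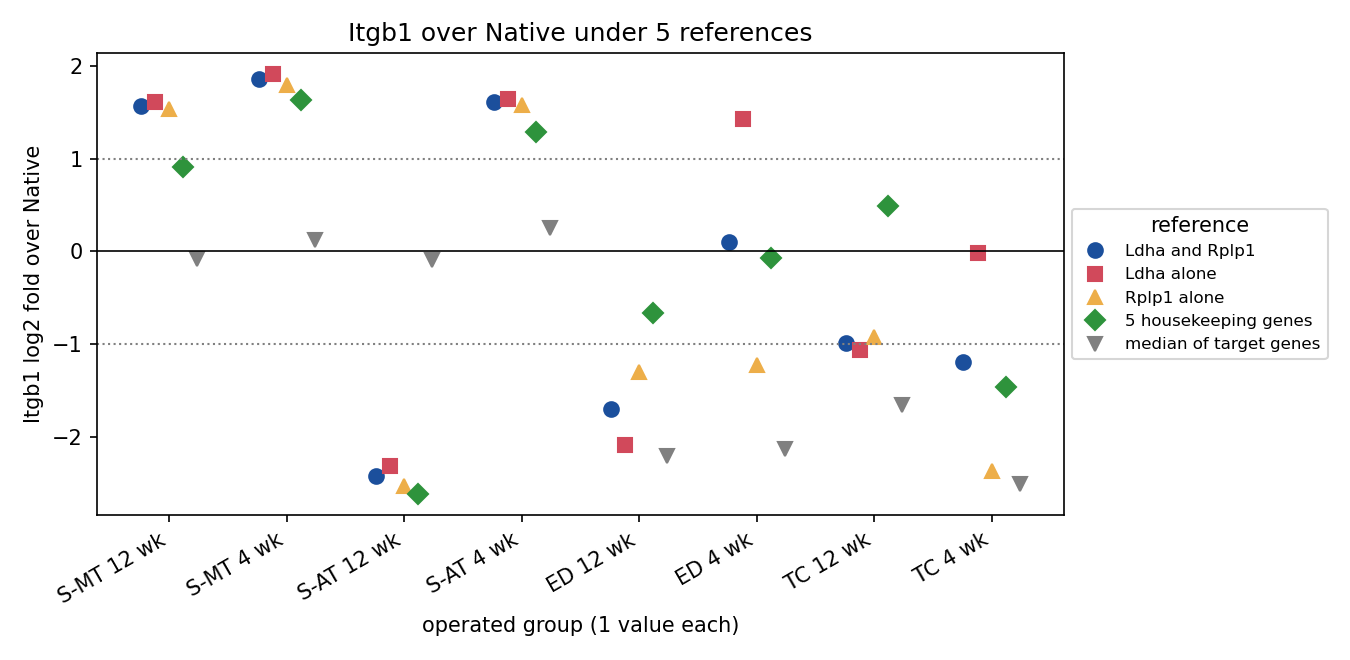
The log2 fold of Itgb1 over Native (y axis) in each operated group (x axis) is shown under 5 references, 1 symbol each. With the median of target genes the 4 scaffold values lie between -0.09 and 0.25, and at 4 weeks the ED and TC values spread widest.

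*Itgav* encodes the alphaV chain. Its Ct was 29.00 at 12 weeks and 30.41 at 4 weeks in S-MT, 34.04 and 30.34 with S-AT, and 33.65 and 34.28 in ED. In TC it lay over the limit at 36.99 and 35.46 cycles, and in Native at 35.42. The same 3 scaffold groups as for *Itgb1* were therefore the earliest, and each stood at least 3 cycles ahead of every other group.

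Over Native, S-MT had at least 5.15-fold more *Itgav* at 12 weeks and at least 2.60-fold more at 4 weeks, and S-AT had at least 2.89-fold more at 4 weeks. The bounds for S-AT at 12 weeks and for both times in ED lay below Native and leave the direction unknown. TC gave no fold, since both sides were over the limit.

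*Cdh11* crossed at 30.47 cycles at 12 weeks and 31.88 at 4 weeks in S-MT, 34.39 and 31.89 with S-AT, and 31.20 and 34.68 in ED. It was over the limit in TC, at 35.51 and 35.14, and undetermined in Native. S-MT at 12 weeks had the earliest value, and ED at 12 weeks was second in Ct and in level. Relative to the reference genes the levels were 0.0591 in S-MT at 12 weeks, 0.0317 in ED at 12 weeks, 0.0313 in S-AT at 4 weeks and 0.0298 in S-MT at 4 weeks, and the steps between the last 3 were 0.02 and 0.08 on the log2 scale. ED at 4 weeks followed with 0.0110 and S-AT at 12 weeks with 0.00247. No bound over Native passed 2-fold, the nearest being at least 1.86-fold in S-MT at 12 weeks.

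The collagen receptor chain *Itga2* was within the limit in 4 groups. Its Ct was 33.09 at 12 weeks and 35.25 at 4 weeks in S-MT, 37.02 and 34.33 with S-AT, 31.22 and 35.09 in ED, and 34.36 and 37.85 in TC, with Native undetermined. The earliest value was thus in ED at 12 weeks, where *Itgb1* was not early. The laminin receptor chain *Itga3* was within the limit in ED at 12 weeks alone, at 30.03 cycles. It was at 35.50 at 12 weeks and 38.17 at 4 weeks in S-MT, undetermined at 12 weeks and 37.50 at 4 weeks in S-AT, 36.99 in ED at 4 weeks, 35.08 in TC at 12 weeks, and undetermined in TC at 4 weeks and in Native. Its bound in ED at 12 weeks was at least 2.26-fold over Native.

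*Itgam*, the myeloid chain, was within the limit in 3 groups. Its Ct was 32.21 at 12 weeks and 34.69 at 4 weeks in S-MT, and 33.06 in ED at 12 weeks. It lay over the limit in S-AT at 35.36 and 35.08 cycles and in TC at 12 weeks at 38.44, and it was undetermined in ED and TC at 4 weeks and in Native. A value beyond the limit does not show that the transcript was absent.

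**Figure D3:**
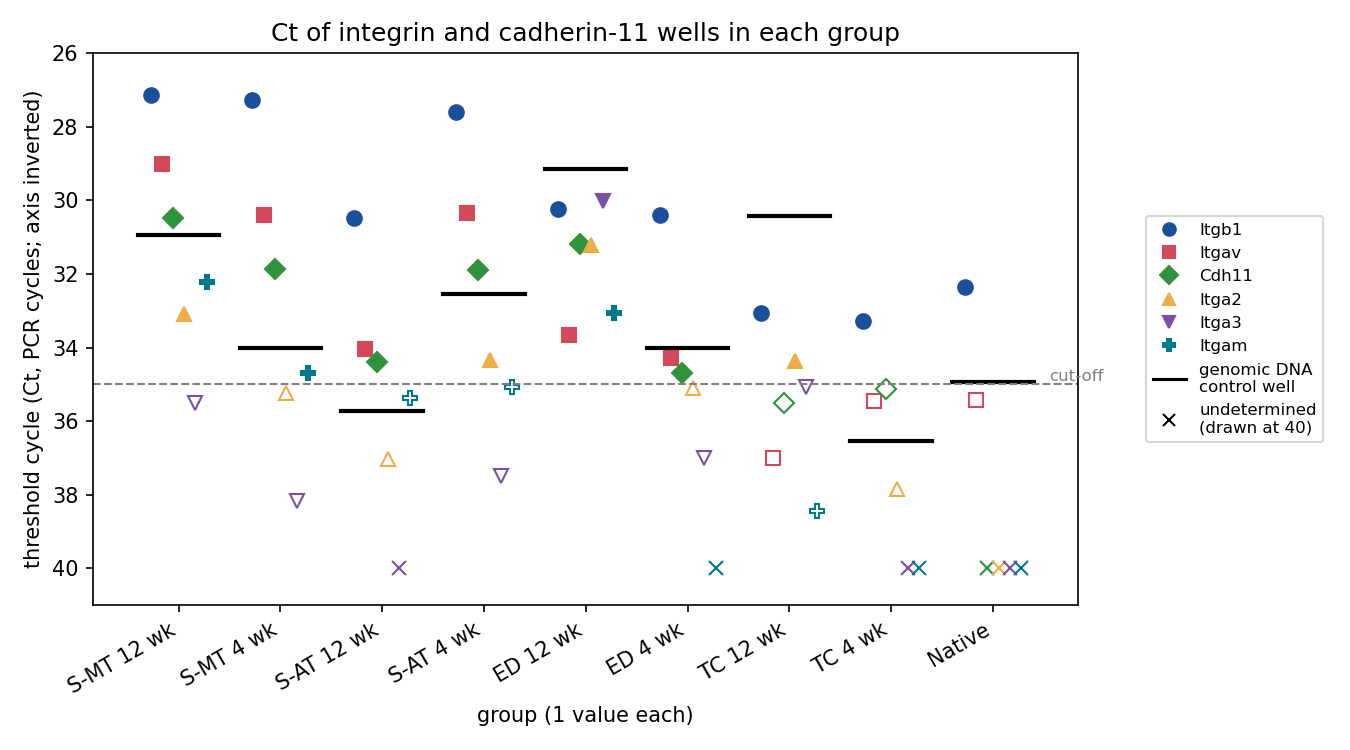
Threshold cycle (y axis, inverted so that more template is higher) of the 6 genes in each group (x axis, 1 value each). Open symbols lie over the limit of 35 cycles, crosses at 40 are undetermined wells, and black bars give the genomic DNA control well, which no gene precedes in ED and TC at 12 weeks.

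As a check of the tissue, *Col1a1*, the main collagen of tendon and bone, was within the limit in every group, at 24.86 to 32.01 cycles. A control well for genomic DNA (well H06 in the maker's usual layout, which the sources used here do not name) bears on the late wells. It crossed at 30.9 cycles at 12 weeks and 34.0 at 4 weeks in S-MT, 35.7 and 32.5 with S-AT, 29.2 and 34.0 in ED, 30.4 and 36.5 in TC, and 34.9 in Native. In TC at 12 weeks *Col1a1*, at 31.18 cycles, was later than this well. Counting wells within 35 cycles, *Itgb1* was at least 1 cycle ahead of the genomic DNA well in 7 groups and behind it in ED and TC at 12 weeks. *Itgav* was at least 1 cycle ahead in S-MT and S-AT at both times. *Cdh11* was so in S-MT at 4 weeks and S-AT at 12 weeks, and *Itga2*, *Itga3* and *Itgam* in none. In ED at 12 weeks 83 of the 84 target genes were within the limit but 6 were at least 1 cycle ahead of that well, and in TC at 12 weeks 51 were within it and 1 was ahead. The part of genomic DNA in the values of the 6 genes was not tested.

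Whether the 2 scaffold designs differed was asked at each time. At 4 weeks they were close for all measured genes of the set. In S-MT over S-AT the log2 fold was 0.24 for *Itgb1*, -0.08 for *Cdh11* and -0.15 for *Itgav*, and 0 of the 5 genes with a fold were called (background 1.75% higher and 5.26% lower). At 12 weeks all 5 genes with a fold were called higher in S-MT than in S-AT, beside 90.9% higher and 0% lower over all target genes, so that the set followed the array as a whole. *Itgav* was 52.0-fold higher, which ranked 4 among the 44 genes measured in both. *Cdh11* was 23.9-fold and *Itgb1* 16.0-fold higher, *Itgam* at least 10.9-fold and *Itga2* at least 5.93-fold. The median log2 fold of the 3 measured genes was 4.58, against 3.30 over all 44. Against the median of the 15 target genes, *Itgav* alone stayed called, with a log2 fold of 1.71, while *Cdh11* had 0.59 and *Itgb1* 0.01.

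Seen over time, the gap at 12 weeks lay mostly in S-AT. In S-AT at 12 weeks over 4 weeks, *Itgav* was 29.2-fold lower, *Itgb1* 16.4-fold lower, *Cdh11* 12.7-fold lower and *Itga2* at least 3.55-fold lower. These were 4 of 4 genes with a fold, beside 0% higher and 75.4% lower over all target genes. Their own Ct came 3.71, 2.88 and 2.51 cycles later for *Itgav*, *Itgb1* and *Cdh11*, while the mean of the reference genes came earlier, at 25.7 cycles against 26.9. Against the median of the 15 target genes, *Itgav* alone stayed called lower, with a log2 fold of -1.17.

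Ct changes over time differed by plate row in S-AT. Genes lie on the plate in alphabetical order, with *Cdh11* in row B, *Itga2* in row D, the other 4 in row E, and the housekeeping genes in row H. From 4 to 12 weeks in S-AT, the median Ct of wells within the limit came later by 2.48 cycles in row B, 3.11 in row D and 1.98 in row E, changed by 0.04 in row F, and came earlier in rows G and H (-0.76 and -1.16). Over the same times the row medians lay between -1.62 and -0.56 in S-MT, between -4.41 and -0.24 in ED, and between -0.98 and 1.66 in TC, so row medians also differed in the other treatments. The positive PCR controls of S-AT at 12 weeks crossed at 26.0 cycles, against 19.1 to 21.9 in the other 8 groups. Plate position and gene cannot be told apart in these folds.

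In S-MT the time course ran otherwise. *Itgam* was 4.20-fold higher at 12 weeks than at 4 weeks, rank 2 of the 51 genes measured at both times, and *Itga2* was at least 2.81-fold higher. These were 2 of 5 genes with a fold, beside 36.4% higher and 0% lower over all target genes. *Cdh11* and *Itgav* stayed just inside the limit, each with a log2 fold of 0.99, and *Itgb1* had -0.28, rank 49 of 51. The *Itgb1* message thus did not rise, whereas the median gene had a log2 fold of 0.92. In S-MT *Itgam* and *Itga2* were both later than the genomic DNA well at 12 weeks and at 4 weeks. At 4 weeks *Itgam* crossed at 34.69 cycles, near the limit, and *Itga2* was over it. The genomic DNA well itself went from 34.0 cycles at 4 weeks to 30.9 at 12 weeks.

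**Figure D4:**
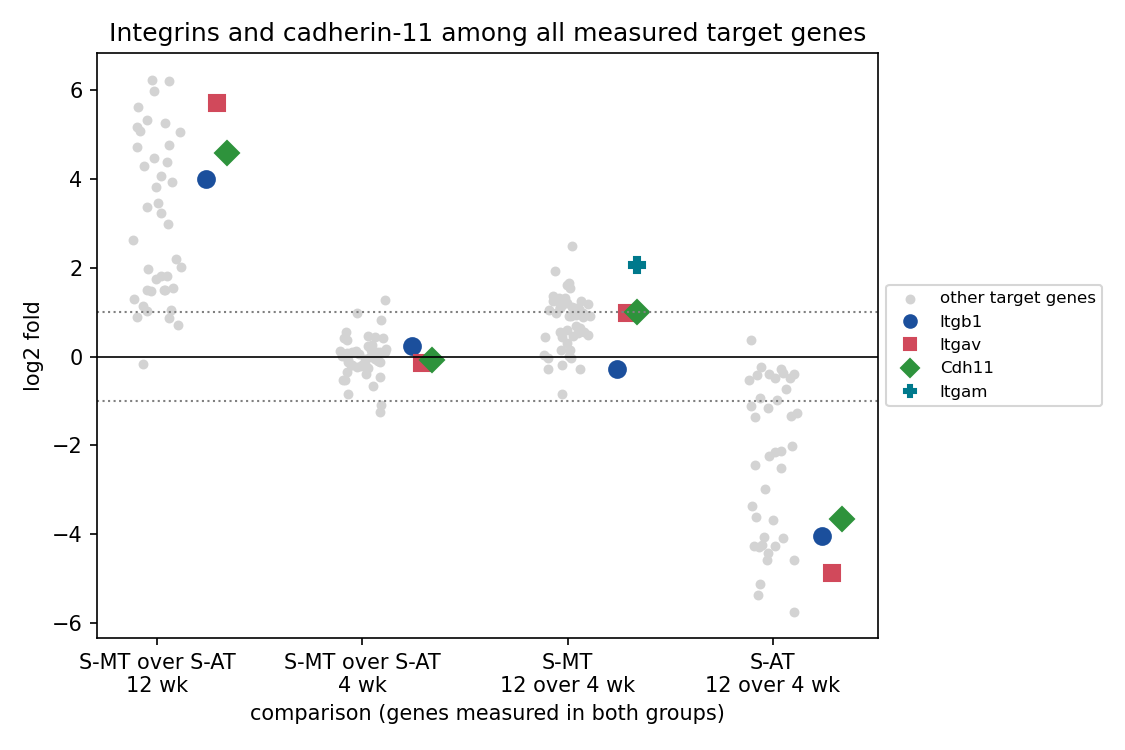
The log2 fold (y axis) of genes measured in both groups is shown for 4 comparisons (x axis). Coloured symbols are integrins and cadherin-11, grey points are other target genes and dotted lines mark 2-fold. Itgav reaches 5.70 in S-MT over S-AT at 12 weeks and -4.87 in S-AT over time.

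Against the empty defect at 4 weeks, both scaffolds had more of the 3 genes measured in all of them. *Itgav* exceeded ED by 5.67-fold in S-MT, rank 3 of 40 genes, and by 6.32-fold in S-AT, rank 3 of 41. *Itgb1* was 3.38-fold and 2.85-fold higher, and *Cdh11* 2.70-fold and 2.84-fold. In each comparison 3 of 4 genes with a fold were called higher and 0 lower, beside 22.6% higher and 17% lower for S-MT and 21.1% higher and 10.5% lower for S-AT over all target genes. Both comparisons share the ED sample, and with *Ldha* alone only *Itgav* was called in either.

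At 12 weeks the scaffolds parted from ED in different ways. In S-MT over ED, *Itgav* was 28.1-fold higher, rank 2 of 66 genes, and *Itgb1* 9.64-fold higher, rank 7. *Itgam* was 2.03-fold higher, *Cdh11* 1.86-fold higher and so not called, *Itga2* 3.27-fold lower and *Itga3* at least 28.0-fold lower. The calls were 3 higher and 2 lower of 6, beside 22.9% higher and 59% lower over all target genes. The median gene had a log2 fold of -0.97 here, so *Itgav* and *Itgb1* ran against most of the array. They were 2 of 19 target genes called higher. In ED at 12 weeks both were later than the genomic DNA well.

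In S-AT over ED at 12 weeks, 4 of 6 genes were called lower and 0 higher, beside 2.41% higher and 88% lower. *Cdh11* was 12.9-fold lower, *Itga3* at least 44.2-fold, *Itga2* at least 19.4-fold and *Itgam* at least 5.40-fold lower. *Itgav* and *Itgb1* were not called, with log2 folds of -0.89 and -0.73. Within ED, 12 weeks over 4 weeks, *Cdh11* was 2.89-fold higher, *Itga2* at least 3.55-fold and *Itga3* at least 8.10-fold higher, whereas *Itgav* was 2.49-fold lower and *Itgb1* 3.47-fold lower, beside 67.5% higher and 16.9% lower over all target genes. The Ct of *Itgav* and *Itgb1* themselves changed by only -0.64 and -0.16 cycles. *Ldha* went from 31.03 cycles at 4 weeks to 27.35 at 12 weeks, and *Rplp1* from 25.33 to 25.10. With *Rplp1* alone neither *Itgav* nor *Itgb1* was called lower, and with *Ldha* alone *Cdh11* was not called higher. These folds within ED therefore depend on the reference gene.

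TC gave few folds. *Itgb1* had a log2 fold of 0.20 at 12 weeks over 4 weeks, and 0 of 2 genes were called (background 23.1% higher and 7.69% lower). In this comparison *Itgb1* was called lower with *Ldha* alone and higher with *Rplp1* alone, so its direction over time in TC is not settled. In ED over TC at 4 weeks *Itgb1* was 2.45-fold higher, the 1 call among 3 genes with a fold, beside 28.6% higher and 2.38% lower. In ED over TC at 12 weeks *Itga3* was at least 2.73-fold higher, the 1 call among 6, and *Itgb1* and *Itga2* had log2 folds of -0.70 and -0.38 (background 31.3% higher and 8.43% lower).

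The Ct of an alpha chain minus that of *Itgb1* in the same sample needs no reference gene. It compares 2 wells, so its size also holds the amplification of each primer pair, and changes between groups are easier to read than levels. *Itga3*, *Itgam*, *Itgav* and *Itgb1* sit in neighbouring wells (E01 to E04).

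*Itgav* minus *Itgb1* was 1.86 cycles at 12 weeks and 3.13 at 4 weeks in S-MT, 3.56 and 2.73 with S-AT, and 3.40 and 3.88 in ED. In TC it was at least 1.94 and 1.71 cycles and in Native at least 2.65. Among the 6 groups measured in both wells, the alphaV message was nearest to the beta1 message in S-MT at 12 weeks. The ratio of *Itgav* to *Itgb1* was 2.42-fold higher in S-MT at 12 weeks than at 4 weeks, and 1.78-fold lower in S-AT at 12 weeks than at 4 weeks. At 12 weeks S-MT exceeded S-AT in this ratio by 3.25-fold and ED by 2.91-fold. The gap of 52.0-fold for *Itgav* between the scaffolds at 12 weeks therefore shrank to 3.25-fold when read against its neighbour well.

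*Itga2* minus *Itgb1* was 5.95 cycles at 12 weeks and at least 7.73 at 4 weeks in S-MT, at least 4.52 and then 6.73 with S-AT, 0.97 and at least 4.60 in ED, 1.29 and at least 1.71 in TC, and at least 2.65 in Native. The measured values fell into a wide pair, S-MT at 12 weeks and S-AT at 4 weeks, and a narrow pair, ED and TC at 12 weeks. Both narrow values come from the samples in which every gene of the set was later than the genomic DNA well.

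*Itga3* crossed ahead of *Itgb1* in ED at 12 weeks, with a difference of -0.22 cycles. Elsewhere *Itga3* trailed *Itgb1* by at least 7.86 cycles at 12 weeks and 7.73 at 4 weeks in S-MT, 4.52 and 7.40 with S-AT, 4.60 in ED at 4 weeks, 1.94 and 1.71 in TC, and 2.65 in Native. The SD of Ct over the detected target genes was 1.50 cycles in ED at 12 weeks against 3.14 in S-MT at 12 weeks, so all genes lay closer together there. *Itgav* had the latest Ct of the 83 target genes within the limit in that sample, at 33.65.

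*Itgam* minus *Itgb1* was 5.06 cycles at 12 weeks and 7.42 at 4 weeks in S-MT and 2.82 in ED at 12 weeks. It was at least 4.52 and 7.40 in S-AT, 4.60 in ED at 4 weeks, 1.94 and 1.71 in TC, and 2.65 in Native. In S-MT the ratio of *Itgam* to *Itgb1* was 5.11-fold higher at 12 weeks than at 4 weeks. Since alphaM does not pair with beta1, this ratio compares a myeloid message with a general one.

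*Cdh11* minus *Itgb1* was 3.33 cycles at 12 weeks and 4.60 at 4 weeks in S-MT, 3.91 and 4.28 with S-AT, and 0.95 and 4.28 in ED, a narrow range apart from ED at 12 weeks. *Itgav* minus *Cdh11* was -1.47 cycles at both times in S-MT, -0.35 and -1.55 with S-AT, and 2.45 and -0.40 in ED. Among these 6 groups, in which both wells were within the limit, the distance was the same at both times in S-MT and the order was turned in ED at 12 weeks.

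**Figure D5:**
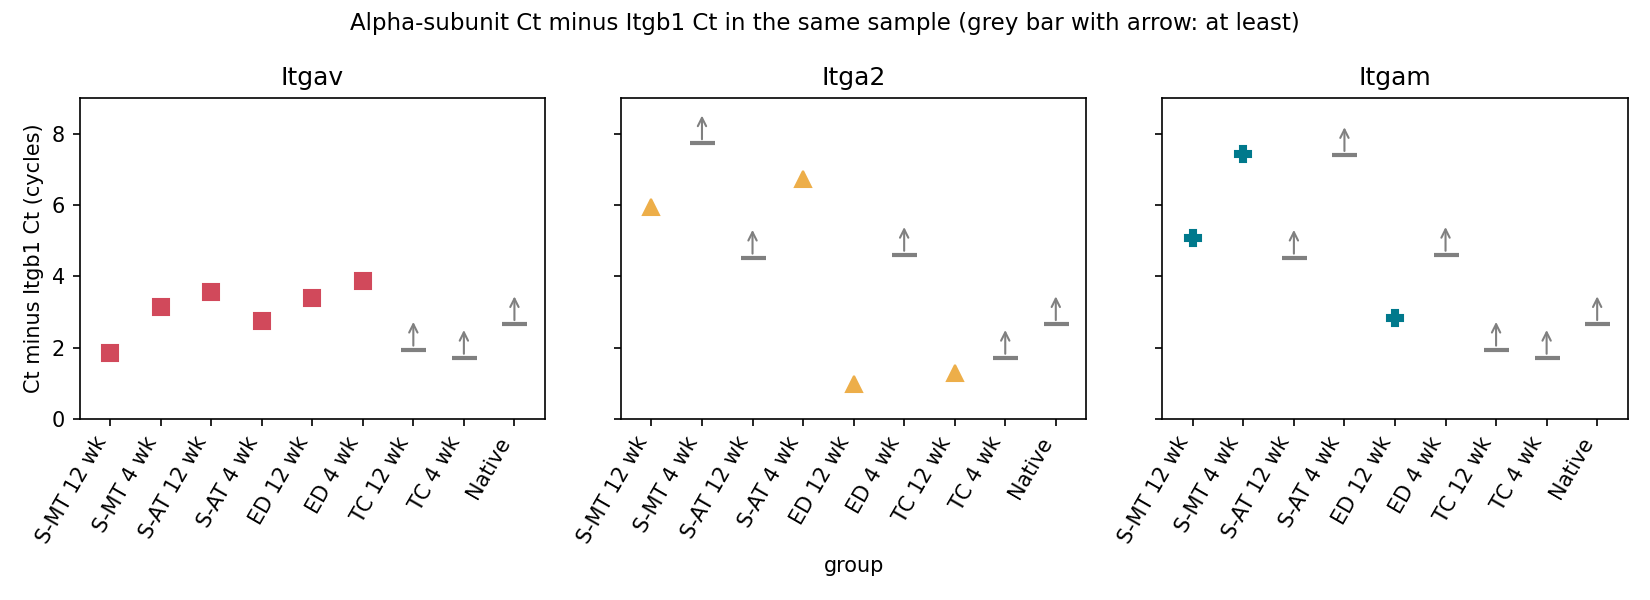
Ct of Itgav, Itga2 and Itgam minus Ct of Itgb1 in the same sample (y axis, cycles) for each group (x axis). Coloured symbols were measured in both wells, and grey bars with arrows are lower bounds. Itgav ranges from 1.86 to 3.88 cycles, and Itga2 from 0.97 to 6.73.

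Genes were also ranked by likeness, as the SD over groups of their Ct difference from each gene of the set, over the groups with both wells within the limit. Nearest to *Itgb1* were *Mmp2*, a gelatinase, with an SD of 0.59 cycles over 8 groups, *Fn1*, the fibronectin that beta1 integrins bind, with 0.66 over 9, and *Anxa5*, a phospholipid-binding protein, with 0.71 over 9. The median over the 40 genes compared was 1.68. Nearest to *Itgav* over 6 groups were *Mmp2* (0.43), *Itgb1* (0.72) and *Fn1* (0.87), against a median of 2.04 over 34 genes. Nearest to *Cdh11* over 6 groups were *Bmpr2*, a BMP receptor (0.74), *Nfkb1*, a transcription factor subunit (0.81), and *Cd36*, a scavenger receptor (0.81), against a median of 1.37. *Mmp2* lies in plate row E as *Itgav* and *Itgb1* do, and *Bmpr2* and *Cd36* lie in row B as *Cdh11* does. *Fn1* (row D), *Anxa5* (row A) and *Nfkb1* (row E) lie in other rows than the genes they were near. The position of wells was not removed.

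The ligands on the array were listed as 12 genes for proteins that integrins bind. All 12 had a fold over Native except in ED at 4 weeks (10), TC at 12 weeks (11) and TC at 4 weeks (9). Over Native, 6 were called higher at 12 weeks and 5 at 4 weeks with S-MT, 1 and 4 with S-AT, 5 and 7 with ED, and 3 and 4 with TC. None was called lower at either time with S-MT, 8 and 2 with S-AT, 2 and 0 with ED, and 2 and 2 with TC. The shares called over all target genes in the same comparisons are those given above for the receptors, and nothing particular to the ligands is read from the counts. In S-MT over S-AT at 12 weeks 11 of 12 were higher, beside 90.9% over all target genes, with a median log2 fold of 4.15 against 3.30 over all measured target genes. *Spp1* (osteopontin, a ligand of alphaV integrins) was undetermined in Native alone and was called higher in all 8 operated groups, by at least 210.0-fold in S-MT at 12 weeks and at least 8.02-fold in ED at 12 weeks.

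The distance between receptor and ligand varied by pair. *Fn1* crossed ahead of *Itgb1* in every group: *Fn1* minus *Itgb1* was -3.44 cycles at 12 weeks and -2.72 at 4 weeks in S-MT, -2.68 and -2.93 with S-AT, -2.15 and -3.82 in ED, -2.40 and -3.23 in TC, and -4.17 in Native, where the gap was widest. *Spp1* minus *Itgav* was -5.35 cycles at 12 weeks and -5.45 at 4 weeks in S-MT, -9.75 and -5.30 with S-AT, and -5.45 and -5.71 in ED. The other 5 lay within 0.42 cycles of each other, and S-AT at 12 weeks stood apart. *Spp1* is in plate row F, whose median did not shift in that sample, and *Itgav* in row E, whose median did.

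Markers of other cells were set beside the myeloid chain *Itgam*. Of the 9 on the list, 5 were called higher and 0 lower in S-MT at 12 weeks over 4 weeks (36.4% higher over all target genes), where *Itgam* was 4.20-fold higher: *Csf1*, a macrophage growth factor, *Tnf* and *Mmp9*, made by myeloid cells among others, *Ctsk*, an osteoclast protease, and *Col2a1*, the collagen of cartilage. The neutrophil gene *Mmp8* was over the limit at both times in S-MT, at 35.40 and 36.93 cycles. *Flt1* and *Cd36*, listed for endothelium, were not called, with log2 folds of -0.18 and 0.92. The cartilage gene *Sox9* was over the limit at 4 weeks, which left its fold open. *Tnf* was over the limit at 4 weeks and later than the genomic DNA well at 12 weeks, at 33.02 cycles. In ED over the same times 7 were higher and 1 lower (67.5% higher and 16.9% lower over all), and *Itgam* was within the limit at 12 weeks only. In S-AT over the same times 7 were lower and 0 higher (75.4% lower over all), and *Itgam* was over the limit at both. *Icam1*, a ligand of the alphaM receptor, was 2.28-fold higher and *Vcam1*, a ligand of beta1 integrins, 5.61-fold higher in S-MT at 12 weeks than at 4 weeks. *Vcam1* was later than the genomic DNA well at both times in S-MT. The part of myeloid cells in these values was not tested.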

How the data were processed

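RNA of the patellar enthesis was measured by the authors with an RT2 Profiler rat osteogenesis array and SYBR Green on a CFX 96 cycler. The deposited tables hold the threshold cycle (Ct, in cycles) per well and group, and normalized values per well, which the authors made as a ratio to *Ldha* and *Rplp1* (2 to the power of the negative Ct difference). A table of the authors' folds over native tissue was not used. The plate has 96 wells, of which 7 are controls named here from the maker's usual layout.

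Ct values were read and folds recomputed in Python (version 3.11.15; numpy 2.4.6, pandas 2.3.3), and matplotlib 3.10.9 drew the plots. Wells beyond 35 cycles or without a Ct were given 35, yielding a bound where 1 group was affected and no fold where both were. From each Ct the average of the *Ldha* and *Rplp1* wells was subtracted. All 433 deposited normalized values compared lay within 5% of those recomputed. Each of 20 comparisons used 1 value per group, so there was no test and no error, and precision per value is unknown. Within-sample differences were taken between Ct of 2 wells, as bounds where only *Itgb1* was within 35.

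The text names all 6 genes, the ligand and other-cell lists, and the 3 genes most alike in Ct to each gene within the limit in at least 6 groups. The genes and lists were chosen with earlier results of these data known. All 84 target symbols were in the RefSeq gene table of GRCr8; promoters come from the RefSeq promoter table of the same build. Alternatives were *Ldha* alone, *Rplp1* alone, 5 housekeeping genes, the median of 15 target genes, a limit of 33, no limit, an amplification of 1.9 per cycle and the deposited normalized values. A restriction to wells at least 1 cycle ahead of the genomic DNA well was added after the data were seen. The calculation was tested on simulated Ct with known changes.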

Additional observations from a re-analysis of the deposited data

Results flagged for a closer look

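The results below had opposite signs in groups set under the same contrast, with at least 1 value past 2-fold. None of the differences was tested, since each group has 1 value.

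In the change over time (12 weeks over 4 weeks, log2 fold), the values of *Cdh11* were 0.99 for S-MT, -3.67 for S-AT and 1.53 for ED. *Itga2* had at least 1.49 in S-MT, at most -1.83 in S-AT and at least 1.83 in ED. With *Itgav* the S-MT value was 0.99, the S-AT value -4.87 and the ED value -1.32. *Itgb1* had -0.28 in S-MT, -4.04 in S-AT, -1.80 in ED and 0.20 in TC.

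In S-MT over S-AT, *Cdh11* had a log2 fold of 4.58 at 12 weeks and -0.077 at 4 weeks, and *Itgav* had 5.70 at 12 weeks and -0.15 at 4 weeks. In S-AT over ED, *Cdh11* had -3.69 at 12 weeks and 1.51 at 4 weeks, *Itgav* had -0.89 at 12 weeks and 2.66 at 4 weeks, and *Itgb1* had -0.73 at 12 weeks and 1.51 at 4 weeks. In ED over TC, *Itgb1* had -0.70 at 12 weeks and 1.29 at 4 weeks. Most of these contrasts hold S-AT or ED at 12 weeks, the samples with late positive PCR controls (26.0 cycles) and an early genomic DNA well (29.2 cycles); their part in the values was not tested.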

How the results depend on the processing

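No paired analysis was possible because each group has 1 value, and no sample could be left out of a group for the same reason. Of 427 log2 folds recomputed under the alternatives, 378 stayed on their side of the 2-fold limit, of which 6 changed sign inside it. Another 21 lost the call, 16 gained one, and 12 changed sign with a value past 2-fold before or after. Folds that an alternative left missing or open were not counted. The 378 include values that could not cross: 35 at a limit of 33, 55 without a limit and 17 ahead of the genomic DNA well. A further 46 restated the same Ct as deposited normalized values. With the median of target genes 30 stayed, 9 lost the call, 3 gained one and 7 were among the 12 that changed sign. Of 48 within-sample differences, 14 without a limit and 6 at a limit of 33 were unchanged by construction, and 14 restated deposited values. At an amplification of 1.9 per cycle 13 moved by less than 0.5 cycles, and *Itgam* minus *Itgb1* in S-MT at 4 weeks was 6.87 doublings.

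The 6 sign changes inside the limit included *Itgb1* with 5 housekeeping genes, at 0.49 in TC at 12 weeks and -0.072 in ED at 4 weeks over Native. The 12 with a value past 2-fold were as follows. Under the median of target genes, which moved the median gene over Native by -1.66 in S-MT at 12 weeks and -1.74 at 4 weeks, *Itgb1* had -0.087 in S-MT at 12 weeks and -2.13 in ED at 4 weeks over Native, *Cdh11* 0.027 in S-AT over time, *Itgav* 0.40 in ED over time, *Itgam* -0.13 in S-MT over ED at 12 weeks, and *Itgav* 1.96 and *Itgb1* 2.12 in S-AT over ED at 12 weeks. With *Rplp1* alone *Itgb1* in ED at 4 weeks over Native had -1.23 and *Itgav* in ED over time 0.40. With *Ldha* alone *Cdh11* in ED over time had -0.19 and *Itgb1* in TC over time -1.04. With 5 housekeeping genes *Itgam* in S-MT over ED at 12 weeks had -0.68. The cause was not tested.

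Of 172 counts of genes called, 117 stayed within 1.5 times the reported count. With *Ldha* alone the count became 1 in ED at 12 weeks, ED at 4 weeks and TC at 12 weeks and 0 in TC at 4 weeks over Native, 3 in ED and 1 in TC over time, 1 for each scaffold over ED at 4 weeks, and 2 for ED over TC at 12 weeks. With *Rplp1* alone it was 1 in ED at 4 weeks over Native, 4 in S-MT over time and 2 in TC over time. With 5 housekeeping genes it was 1 in S-MT and in TC at 12 weeks over Native and 2 in TC over time. With the median of target genes it was 0 over Native for both scaffolds at both times, 1 over Native in ED at both times and in TC at 12 weeks, 4, 1 and 1 over time in S-MT, S-AT and TC, 1 for S-MT over S-AT at both times, and 0 for ED over TC at 4 weeks. A limit of 33, which loosens the bounds by construction, gave 1 over Native in S-MT at both times, S-AT at 4 weeks and ED at 12 weeks, 0 in TC at 4 weeks, 0 in S-MT and 2 in ED over time, and 0 for ED over TC at 12 weeks. Without a limit the counts were 2 in S-AT and 1 in TC at 12 weeks over Native, 2 in TC over time, 5 for S-MT over ED at 4 weeks, and 2 and 3 for ED over TC at 12 and 4 weeks. The deposited normalized values are missing for these genes beyond the limit in operated groups. They gave 1 and 3 in S-MT and ED over time. At 12 weeks they gave 3 for S-MT over S-AT, 1 for S-AT over ED and 0 for ED over TC. Wells at least 1 cycle ahead of the genomic DNA well gave 1 in S-MT at both times and S-AT at 4 weeks over Native, over time 0 for S-MT and 2 for S-AT, 2 for S-MT over S-AT at 12 weeks, and 1 for each scaffold over ED at 4 weeks; for ED and TC at 12 weeks this gave no value.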
